A study of Capra hircus with 198 samples.

Results

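The 10 genes described here build the circadian clock and its nearest output, and all 10 had a row among the 39734 features of the count table. They are CLOCK, ARNTL, PER2, PER3, CRY1, CRY2, NR1D1, NR1D2, DBP and BHLHE40, chosen by name and not by a measured value. They were followed through 33 tissues of 6 adult female Murciano-Granadina goats, with 1 library of total RNA per goat and tissue. Goats 2, 3 and 6 were labelled lactating and goats 54, 64 and 73 dry, so each state within a tissue holds 3 goats. Both sets share breed, sex and protocol. The labels give no hour of sampling, age or housing, so lactation state and any of these cannot be told apart. The questions were how the level of each clock gene varies over the body, and whether the clock could stand at a different phase in the 2 sets of goats.

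The mammalian clock is a feedback loop that runs in most cells. CLOCK and ARNTL (also named BMAL1) form a dimer that binds E-boxes and switches on the PER and CRY genes, whose proteins return to inhibit it. The same dimer drives NR1D1 and NR1D2 (REV-ERB alpha and beta), nuclear receptors that repress ARNTL, as well as DBP, an output transcription factor, and BHLHE40, a repressor of E-box genes. ARNTL therefore peaks at roughly the opposite phase to DBP, NR1D1 and the PER genes, while CLOCK is known for a flat rhythm in many tissues.

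Values are counts per 1e+06 of the library total (CPM), and log2 values carry a prior count of 2. Library totals ran from 1.31 to 8.97 M estimated counts, with a median of 4.63 M, and a floor of 3 counts stood between 0.335 and 2.29 CPM. Features of the deposited lncRNA annotation took 85.0% of the counts on average, 84.5% in lactating and 85.5% in dry goats. That left a median count per library of 113 for PER3, 98 for NR1D1, 96.5 for CLOCK, 27 for NR1D2 and 25 for ARNTL. The other 5 genes were thinly counted, with a median of 15.5 for CRY2, 13 for BHLHE40, 10 for CRY1 and 6 for PER2 and DBP. PER2 lay under 3 counts in 42 libraries and DBP in 25. In a total RNA library of a whole tissue, fewer cells of a type and less RNA per cell cannot be told apart.

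Some libraries did not match their own tissue best. By rank correlation with tissue means over the other goats, 174 libraries were closest to their own tissue and 24 to another, 16 of them lactating and 8 dry, spread over 15 tissues. The adenohypophysis libraries of goats 2, 3, 6 and 64 were closest to the neurohypophysis, and the neurohypophysis libraries of goats 54 and 64 to the adenohypophysis. Of 58 pairs of tissue and marker with a row, the marker was highest in that tissue in 42, and that tissue was among the top 3 in 51. Some markers, such as SLC17A7 and KRT6A, were listed for several tissues, so not every pair could be highest. RAX, a marker of the posterior pituitary, averaged 0.305 CPM in the neurohypophysis. AANAT, a melatonin enzyme, averaged 0.237 CPM in the pineal gland. The other markers listed for that gland, TPH1 (47.0 CPM) and ASMT (6.68 CPM), were highest there. The differences between lactating and dry goats over all tissues, the difference between brain and other tissues and the balances of ARNTL are given with and without those 15 tissues.

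The positive arm of the loop differed between tissues and was not uniform within the brain. ARNTL was highest in the frontal neocortex, where the 6 goats had a lowest value of 9.31, a median of 14.5 and a highest of 18.3 CPM. It followed in the cerebellar hemisphere (10.9 ± 2.58 CPM, SD, n = 6) and the neck skin (8.76 ± 2.25 CPM), and was lowest in the left ventricle of the heart, between 0.790 and 2.49 CPM. No heart library reached the lowest frontal neocortex library. CLOCK was highest in the mammary gland, subcutaneous fat and cerebellar hemisphere. In the mammary gland its mean of 41.5 ± 20.8 CPM covered libraries from 14.8 to 65.3 CPM, whereas the cerebellar libraries lay between 31.8 and 43.6 CPM. The diaphragm was lowest, from 4.54 to 11.2 CPM, below every cerebellar library.

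**Figure D1:**
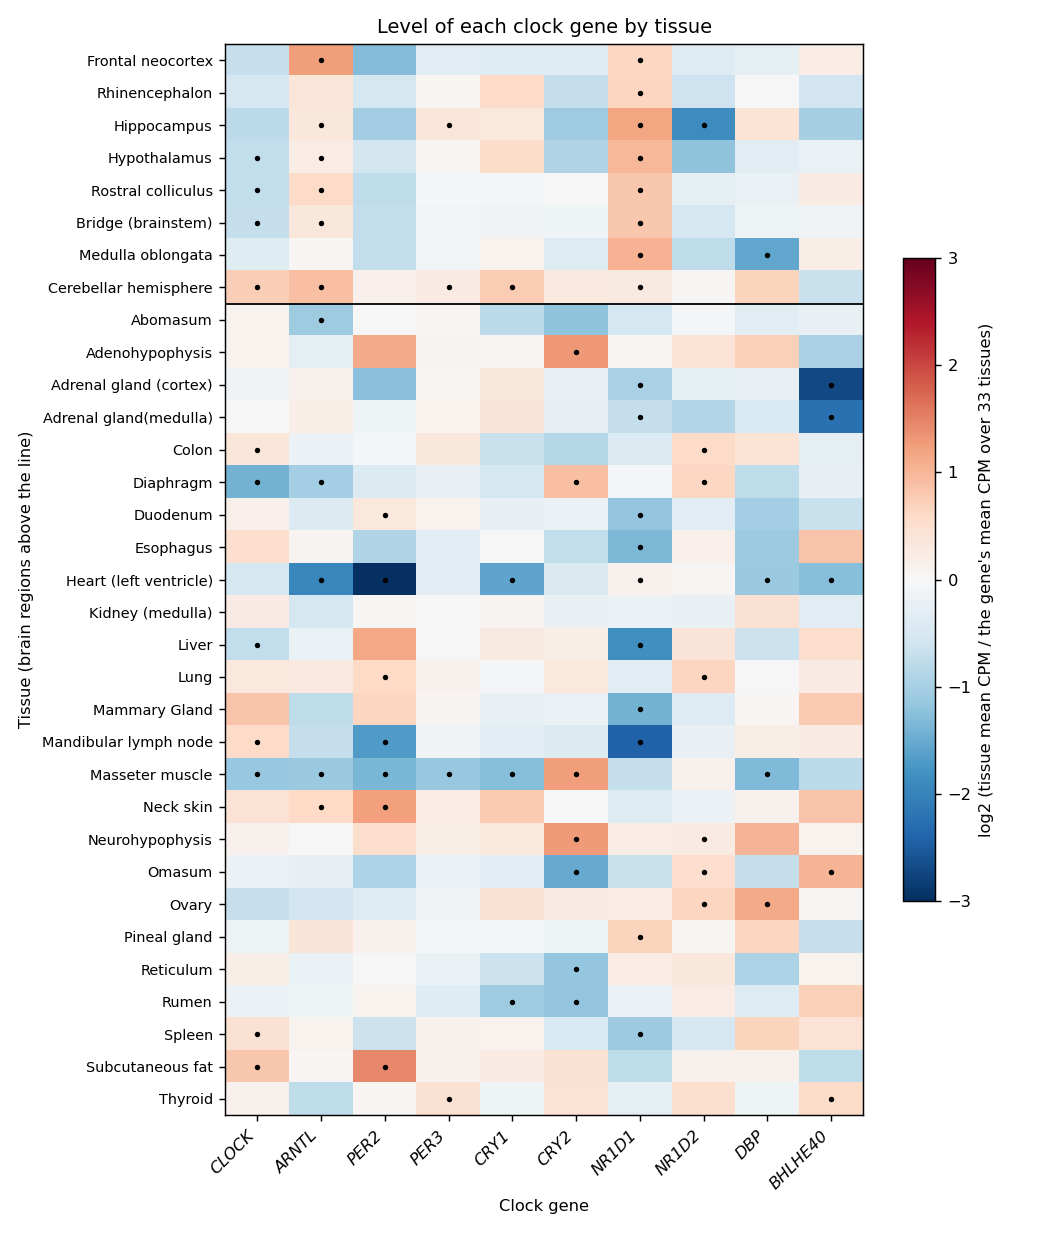
Mean level of each clock gene (columns) in each tissue (rows, 6 libraries each) as log2 of the tissue mean over the gene's mean of 33 tissues, with red above and blue below that mean and colours ending at 3. Dots mark tissues called against the same goats' other tissues: NR1D1 has dots in all 8 brain regions, above the line, and is deep blue in the mandibular lymph node and liver.

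Among the PER and CRY genes, repressors of the loop, PER3 ran over a narrow and PER2 over a wide range. PER3 ran from 34.2 ± 9.72 CPM in the thyroid to 11.3 ± 3.52 CPM in the masseter muscle, a 3.02-fold range of tissue means. PER2 ran from 4.74 ± 3.22 CPM in subcutaneous fat, where single libraries lay between 0.995 and 9.39 CPM, down to 0.211 CPM in the heart, a 22.5-fold range. The heart value lies under the 3-count floor, and with libraries scaled to the counts of features that are not lncRNAs the PER2 range was 13.3-fold. CRY1, a light-independent cryptochrome that inhibits CLOCK and ARNTL, was highest in the neck skin (4.25 ± 1.73 CPM) and lowest in the heart (0.825 ± 0.455 CPM). CRY1 overlaps a pseudogene in the RefSeq annotation, so its counts are uncertain to that extent.

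CRY2, its paralog, had the widest scatter between goats by a narrow margin. Its SD in log2 within tissue and state was 0.868, against 0.846 for both BHLHE40 and NR1D2. CRY2 was highest in the adenohypophysis, at a lowest of 1.61, a median of 10.4 and a highest of 20.1 CPM. It followed in the neurohypophysis (10.2 ± 3.54 CPM) and masseter muscle (10.1 ± 7.47 CPM). It was lowest in the omasum, the third chamber of the ruminant stomach, at 1.48 ± 1.13 CPM. The adenohypophysis range spans nearly the whole range of CRY2 over tissues, so its rank there is uncertain.

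The 2 REV-ERB receptors had different maps. NR1D1 was highest in the hippocampus, where the libraries lay between 50.4 and 68.8 CPM, followed by the medulla oblongata (52.9 ± 8.15 CPM) and hypothalamus (51.5 ± 12.8 CPM). It was lowest in the mandibular lymph node (2.36 to 9.03 CPM) and liver (3.99 to 12.2 CPM), so no library of these 2 tissues reached any hippocampus library. Of the 8 tissues with most NR1D1, 7 were brain regions, and the 8 brain regions averaged 30.9 to 58.2 CPM against 4.79 to 41.0 CPM in the other 25 tissues. NR1D2 was highest in the lung (9.68 ± 1.79 CPM) and ovary (9.62 ± 3.45 CPM). It was lowest in the hippocampus (1.68 ± 1.01 CPM) and hypothalamus (2.66 ± 1.95 CPM), regions where NR1D1 was at its highest.

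DBP, the output factor, was highest in the ovary, from 2.59 to 5.93 CPM, and lowest in the medulla oblongata, from 0 to 1.73 CPM. BHLHE40 was highest in the omasum (6.48 ± 2.87 CPM) and esophagus (5.87 ± 3.50 CPM). It was lowest in the adrenal cortex (0.497 ± 0.418 CPM) and adrenal medulla (0.680 ± 0.591 CPM), at or under the floor. Some places at the ends of these orders depend on the scale. With libraries scaled to the counts of features that are not lncRNAs, CLOCK was highest in the cerebellar hemisphere, PER3 in the hippocampus, CRY1 in the rhinencephalon and NR1D2 in the ovary, and CRY1 was lowest in the rumen. Tissues next to each other in the order of means rarely separated: at least 31 of 32 neighbouring pairs differed by less than their SD for every gene. In the authors' deposited table, the tau score, which is 0 for even expression, was lowest for PER3 (0.1102) and CLOCK (0.1752) and highest for CRY2 (0.501) and PER2 (0.4252).

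Each tissue was then tested against the same goats' means over the other 32 tissues with limma. Of 330 pairs of clock gene and tissue, 78 passed an adjusted p of 0.05, 43 higher and 35 lower, which is 23.6% against 35.6% of all feature and tissue pairs (15.4% higher and 20.2% lower). NR1D1 gave 10 of the higher and 8 of the lower calls. It was called higher in all 8 brain regions, by 1.50 in log2 CPM in the hippocampus (SE 0.0980), 1.35 in the medulla oblongata (SE 0.108) and 0.54 in the cerebellar hemisphere (SE 0.133), and also in the pineal gland (0.97) and heart (0.44). Its lowest values were -2.24 in the mandibular lymph node (SE 0.265), -1.67 in the liver (SE 0.250) and -1.38 in the mammary gland (SE 0.377).

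ARNTL was called higher in 7 tissues, 6 of them brain regions, led by the frontal neocortex at 1.39 (SE 0.190) and the cerebellar hemisphere at 1.06 (SE 0.165). It was called lower in the heart (-1.59), masseter muscle (-0.90), diaphragm (-0.89) and abomasum (-0.90). With the goat as a replicate block, ARNTL lost its calls in the abomasum (adjusted p = 0.0903), hypothalamus (0.0810), hippocampus (0.128) and neck skin (0.0695). CLOCK was called higher in 5 tissues, the cerebellar hemisphere and subcutaneous fat (0.91 each), mandibular lymph node (0.73), spleen (0.61) and colon (0.53). Unlike in the cerebellum, CLOCK was called lower in 3 brain regions, the hypothalamus (-0.66), bridge (-0.61) and rostral colliculus (-0.58). Those 3 calls were each lost under at least 1 alternative, while the cerebellar call was kept under every one. With the block CLOCK was also called in the mammary gland (0.86, adjusted p = 0.0286) and lung (0.40, 0.0309) and, as lower, in the hippocampus (-0.82, 0.0216), ovary (-0.58, 0.0359) and heart (-0.45, 0.0316). DBP was called higher in the ovary (1.23, SE 0.236), NR1D2 in 6 tissues led by the lung (0.88, SE 0.146), and CRY2 in the neurohypophysis (1.55), adenohypophysis (1.30), masseter muscle (1.24) and diaphragm (1.15).

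Striated muscle needs care, since the median feature lay at -0.797 in the heart, -0.792 in the masseter muscle and -0.606 in the diaphragm. With TMM scaling over all libraries, ARNTL (0.12), CLOCK (0.12), CRY1 (0.03) and PER2 (0.18) in the masseter muscle and BHLHE40 in the heart (0.03) changed sign and lost their calls. Of the 78 pairs, 31 kept their call under every alternative of scaling, filter, prior count, block or goat left out. They include 15 of the 18 NR1D1 pairs and ARNTL in the bridge, cerebellar hemisphere and frontal neocortex. The NR1D1 calls in the cerebellar hemisphere, mammary gland and adrenal medulla were each lost under at least 1 alternative. Leaving out tissues that hold a library closest to another tissue was not among these alternatives. The frontal neocortex, hippocampus, hypothalamus, pineal gland, duodenum and esophagus are such tissues. Without the 15 tissues that hold a library closest to another tissue, 27 higher and 23 lower pairs were called in the remaining 18 tissues.

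Over all tissues, CLOCK was the clock gene that separated the sets of goats. Its goat means over 33 tissues were 4.47, 4.70 and 4.68 in log2 CPM in lactating goats 2, 3 and 6. In dry goats 54, 64 and 73 they were 4.14, 4.06 and 4.17. Every lactating goat lay above every dry goat, at 24.4, 28.8 and 27.7 CPM against 19.5, 17.6 and 19.5 CPM. The difference was 0.49 in log2 CPM (SE 0.0785, 95% interval 0.32 to 0.67), a 1.41-fold higher level on this scale, with an adjusted p of 0.0050 in limma. The exact permutation test over 6 goats gave p = 0.1, the smallest that 3 against 3 allows (two-sided).

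CLOCK was the 1 of 10 clock genes called, beside 10.7% of the 31305 features tested, 8.74% higher and 1.94% lower. Non-overlapping goat sets were also common among all features, 23.1% with every lactating goat above and 11.1% with every lactating goat below. The CLOCK difference was 0.52 without the 15 tissues that hold a library closest to another tissue (adjusted p = 0.0017). It was 0.37 with TMM scaling and 0.40 with libraries scaled to features that are not lncRNAs, and the call was kept with both. The background moved more: of the features called, 2737 were higher and 606 lower with library totals (81.9% higher), 1259 and 1412 with TMM (47.1%) and 1475 and 1121 with the totals over features that are not lncRNAs (56.8%). It lost its call with the median over tissues in place of the mean (0.32, adjusted p = 0.316).

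**Figure D2:**
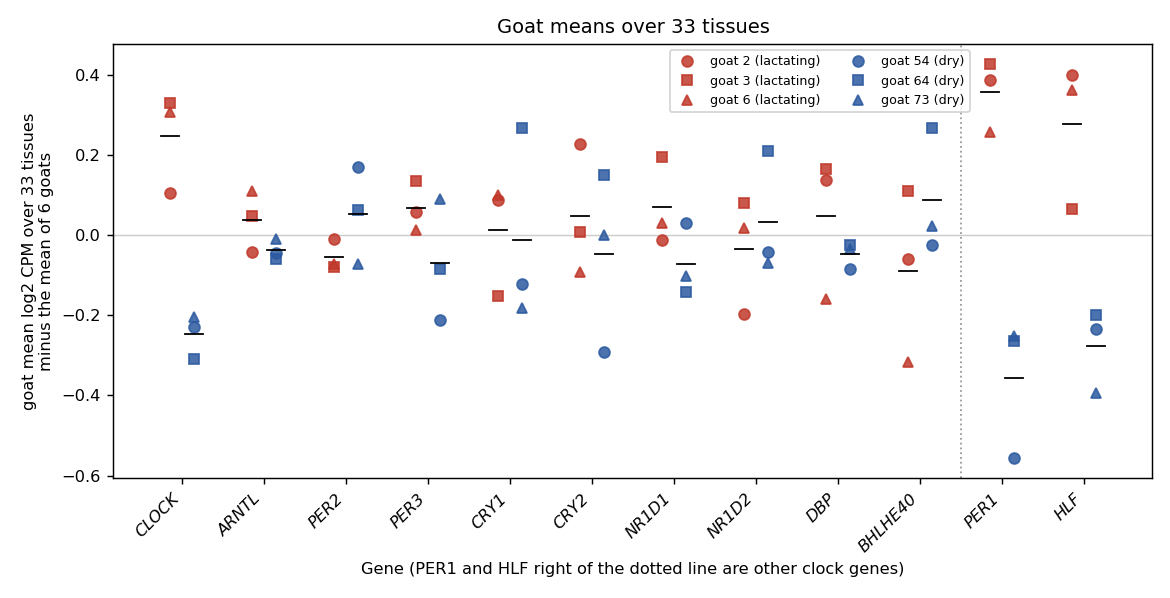
Mean log2 CPM of each goat over 33 tissues, minus the mean of the 6 goats, for the 10 clock genes and, right of the dotted line, PER1 and HLF; red marks lactating and blue dry goats, and bars are set means. The lactating goats lie above all dry goats for CLOCK, PER1 and HLF, while the sets overlap for ARNTL and the other clock genes.

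For the other 9 genes the goat sets overlapped. ARNTL, the partner of CLOCK, stood at 2.40, 2.49 and 2.55 in lactating goats against 2.40, 2.38 and 2.43 in dry goats. Its difference was 0.08 (95% interval -0.13 to 0.29, adjusted p = 0.636). PER2 differed by -0.11 (interval -0.38 to 0.17), PER3 by 0.14 (-0.05 to 0.32), CRY1 by 0.02 (-0.31 to 0.36) and CRY2 by 0.09 (-0.22 to 0.41). For the genes driven by the dimer, NR1D1 differed by 0.14 (-0.03 to 0.32), NR1D2 by -0.07 (-0.33 to 0.19), DBP by 0.10 (-0.20 to 0.39) and BHLHE40 by -0.18 (-0.50 to 0.15). Adjusted p-values of these 9 ran from 0.262 for NR1D1 to 0.935 for CRY1. None of the 9 passed limma without the 15 tissues either. The differences of NR1D1 (0.28, adjusted p = 0.0550), CRY2 (0.49, 0.0802) and PER3 (0.25, 0.102) were larger there, with every lactating goat above every dry goat. That of PER2 changed sign (0.14, 0.642). The background moved up as well: the median of all features was 0.11 without these tissues, against 0.04 with them. Features called were 4943 higher and 549 lower, against 2737 and 606. How many of all features had goat sets apart without these tissues is not given here, so these 3 separations cannot be set against a background. The intervals still allow differences of the size seen for CLOCK in BHLHE40 and come near it for CRY2 and DBP, in BHLHE40 towards a lower level.

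The CLOCK difference was spread over the body. The lactating mean of log2 CPM was above the dry mean in 31 of 33 tissues, in all 8 brain regions and in 23 of the other 25 tissues. It ran from -0.36 in the rumen to 1.36 in the mammary gland. In 12 of 33 tissues (36.4%) every lactating goat had more CLOCK than every dry goat, and in none was it the reverse, against 13.0% and 7.45% of all feature and tissue pairs tested. Among the 18 tissues in which no library was closest to another tissue, the lactating mean was higher in 18 and the sets were apart in 9. The share of all features in those 18 tissues is not given here, so these 2 counts cannot be set against a background. The same 6 goats stand behind these tissues, so they are not independent. In 2 of the 12, the masseter muscle and colon, the fit with TMM scaling within the tissue gave differences of -0.03 and 0.04.

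**Figure D3:**
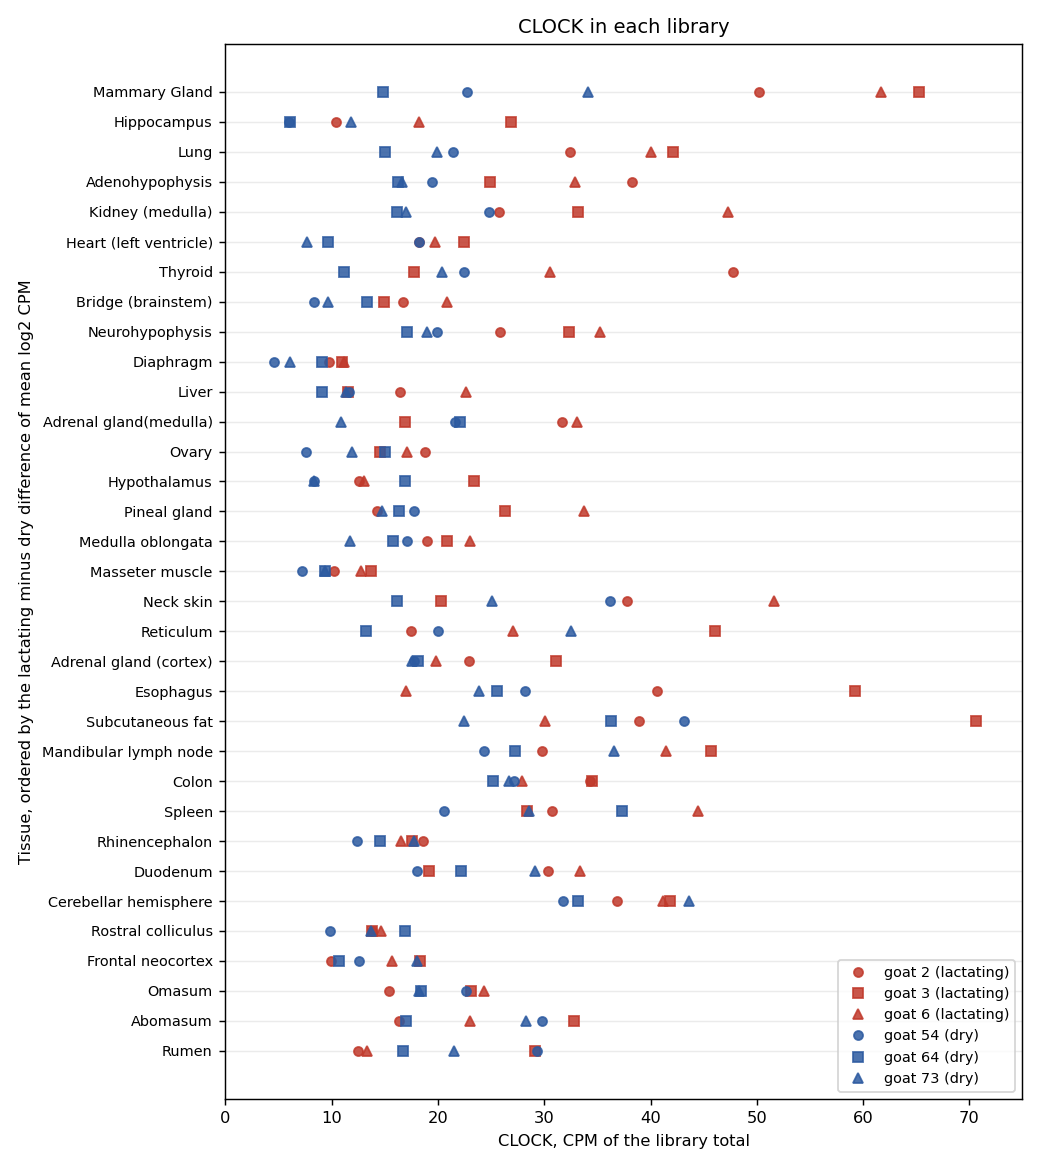
CLOCK in each library, in CPM of the library total, with tissues ordered by the lactating minus dry difference; red marks lactating and blue dry goats. The sets are apart in the mammary gland, at 50.2 to 65.3 CPM against 14.8 to 34.2 CPM, and mixed in the rumen at the bottom.

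For CRY2 the 8 brain regions and the other 25 tissues went apart on average. Those 25 include the pineal gland and both pituitary lobes. In the 8 brain regions the goat means were 1.13, 1.22 and 1.16 in log2 CPM in lactating goats 2, 3 and 6. In dry goats 54, 64 and 73 they were 1.73, 2.24 and 2.04, so every lactating goat was lower there. Over the other 25 tissues they were 2.35, 2.03 and 1.92 in lactating against 1.47, 1.89 and 1.76 in dry goats, with every lactating goat above. The state difference was -0.84 in brain and 0.39 elsewhere, and the difference between them was -1.23 (SE 0.174, 95% interval -1.63 to -0.83, limma adjusted p = 0.0225). Neither difference passed alone (adjusted p = 0.308 in brain and 0.108 elsewhere).

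CRY2 was lower in lactating goats in 6 of 8 brain regions and higher in 19 of 25 other tissues. The 6 other tissues where it was lower include the adenohypophysis (-1.84), pineal gland (-1.11) and neurohypophysis (-0.67). Brain counts were few, with lactating libraries at 0 in the hippocampus of goats 3 and 6 and the medulla oblongata of goat 6. This difference was called for 2.25% of features, 0.0703% higher and 2.18% lower, and the median feature stood at -0.162. The call was kept without the tissues that hold a library closest to another tissue (-1.19, adjusted p = 0.0212), where 101 features were higher and 1954 lower. Of the brain regions left there, the medulla oblongata differed by -1.54, the cerebellar hemisphere by -0.48 and the rostral colliculus by -0.16. The bridge (0.19) and rhinencephalon (0.14) went the other way. The CRY2 call was lost with a prior count of 0.5 (-1.59, adjusted p = 0.0598). Leaving out 1 goat, it was lost in 5 of the 6 fits, those without goat 2, 3, 54, 64 or 73. DBP followed at -0.67 (SE 0.182, adjusted p = 0.0894), lower in lactating goats in 6 of 8 brain regions, and did not pass.

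Within single tissues, clock genes rarely passed the test between lactating and dry goats. With edgeR's quasi-likelihood test, 4 of 259 pairs of clock gene and tissue passed, 2 higher and 2 lower, beside 1.9% of all feature and tissue pairs (0.925% higher and 0.976% lower). A count filter decided which pairs were tested: CLOCK, ARNTL, NR1D1 and PER3 passed it in 33 tissues, NR1D2 in 32, CRY2 in 28, BHLHE40 in 26, CRY1 in 20, PER2 in 11 and DBP in 10. All 4 calls concern tissues in which markers also differed or libraries were closest to another tissue. The few calls do not show that the other pairs were level. In simulated data for the liver, this test recovered 88.9% of features changed by 2 in log2. It missed most of those changed by 1, so differences of that size can stand behind pairs not called.

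NR1D1 rose in the ovary of lactating goats. Goats 2, 3 and 6 had 41.3, 53.9 and 42.6 CPM and goats 54, 64 and 73 had 13.7, 13.7 and 15.6 CPM, with no overlap. The log2 difference was 1.33 (SE 0.213, edgeR adjusted p = 0.0081). In the same ovary libraries 11.7% of features were called, and FOXL2, a marker of granulosa cells, was at 4.51 to 14.1 CPM in lactating and 0 to 0.834 CPM in dry goats. Both ovary markers together lay at 4.74 to 14.8 CPM against 0 to 0.834 CPM, with AMH at 0 in all 3 dry goats. Their part in the NR1D1 result was not tested. The call was lost without goat 3 (1.25, adjusted p = 0.0569).

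BHLHE40 fell in the diaphragm of lactating goats. They had 0, 1.12 and 0.406 CPM against 2.44, 7.73 and 4.62 CPM in dry goats, again without overlap. The fitted log2 difference was -3.52 (SE 0.805, adjusted p = 0.0361, edgeR), and it depends on the fit's prior count because goat 2 was at 0. In these libraries 2.33% of features were called, and CKM, a muscle creatine kinase and the 1 diaphragm marker of 2 with a row, was at 677 to 1322 CPM in lactating and 1594 to 2007 CPM in dry goats. The part of muscle content was not tested. The call was lost in 5 of 9 alternatives, those without goat 2, 6, 54, 64 or 73, and BHLHE40 overlaps other features in the annotation, so reads of these cannot be told apart with certainty.

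The other 2 calls came from the pituitary, whose libraries were the least clearly separated. CLOCK rose in the adenohypophysis, with 38.3, 24.9 and 32.9 CPM in lactating against 19.4, 16.2 and 16.6 CPM in dry goats. No dry goat reached a lactating one, and the difference was 1.08 (SE 0.253, edgeR adjusted p = 0.0362; background 2.83%). NR1D1 fell in the neurohypophysis, with 24.1, 18.9 and 17.4 CPM against 36.0, 41.0 and 43.7 CPM, by 0.88 in log2 CPM (SE 0.212, edgeR adjusted p = 0.0394; background 2.73%).

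Markers of the adenohypophysis were set beside these calls. GH1 and POMC together, 2 of 3 markers with a row, lay at 778 to 2142 CPM in the lactating and 244 to 550 CPM in the dry adenohypophysis, without overlap. In the neurohypophysis they lay at 534 to 1818 CPM in lactating and 728 to 953 CPM in dry goats, and the sets overlapped. RAX was at 1.37 CPM or less in every library of both lobes. The part of lobe content in these results was not tested. The CLOCK call was lost without goat 2, 6, 54, 64 or 73, and the NR1D1 call without any 1 of the 6 goats.

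**Figure D4:**
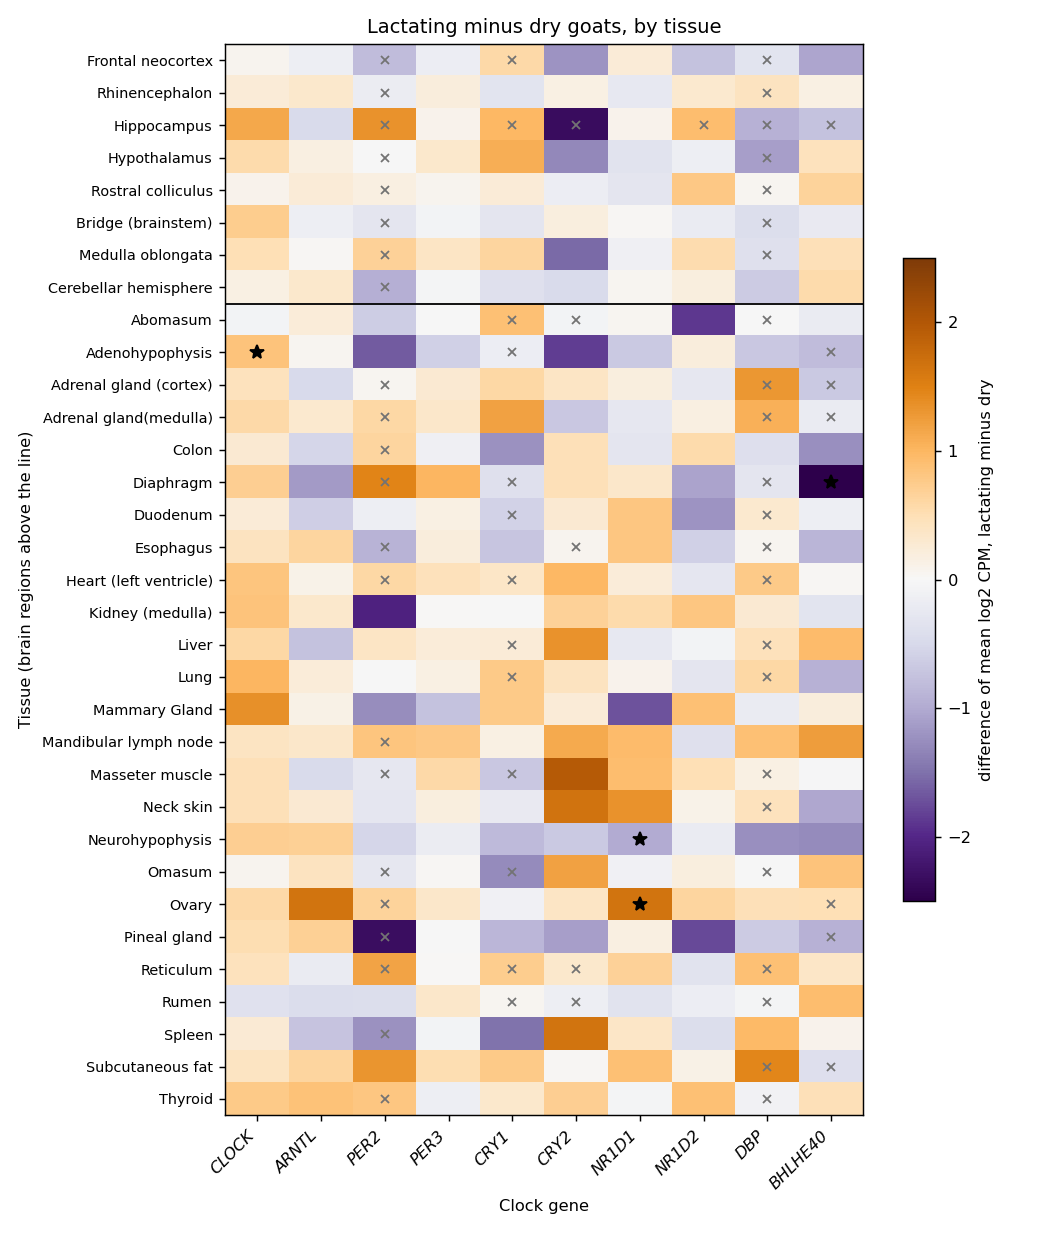
Lactating minus dry difference of mean log2 CPM for each clock gene (columns) in each tissue (rows), orange where lactating goats were higher and purple where lower, with colours ending at 2.5. Stars mark the 4 pairs called and crosses those that did not pass the count filter; the CLOCK column is orange in 31 of 33 tissues.

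Other differences in single tissues were large without passing. CLOCK in the mammary gland was at 50.2, 65.3 and 61.7 CPM in lactating against 22.7, 14.8 and 34.2 CPM in dry goats (log2 difference 1.41, edgeR adjusted p = 0.0784). NR1D1 went the other way there, with 2.69, 5.91 and 4.66 CPM against 12.5, 13.9 and 18.6 CPM (-1.67, adjusted p = 0.134). Neither pair of sets overlapped, in a gland where CSN2 and CSN3, the milk casein genes, together gave 14949 to 23285 CPM in lactating goats and 0 to 6.06 CPM in dry ones. The part of secretory tissue in these differences was not tested. CRY2 in the masseter muscle was at 12.8, 13.7 and 21.9 CPM against 2.65, 2.90 and 6.50 CPM (1.47, edgeR adjusted p = 0.0716). CKM, the 1 masseter marker of 2 with a row, lay at 1939 to 3277 CPM in lactating and 1481 to 1697 CPM in dry goats, without overlap. The part of muscle content in this CRY2 difference was not tested.

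Over the clock genes together, all lactating goats lay above all dry goats in 42 of 259 tested pairs (16.2%) and below in 19 (7.34%). Without CLOCK these were 30 of 226 (13.3%) and 19 (8.41%), close to the 13.0% and 7.45% of all features.

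A shift of clock phase would be looked for in the balance of ARNTL against genes of the opposite phase. The library total falls out of such a balance except through the prior count of 2, which weighs on PER2 and DBP with their few counts. ARNTL minus DBP, in log2 CPM averaged over 33 tissues, was 1.38, 1.44 and 1.83 in lactating goats 2, 3 and 6 and 1.60, 1.52 and 1.58 in dry goats 54, 64 and 73. ARNTL minus NR1D1 was -1.999, -2.12 and -1.89 against -2.04, -1.89 and -1.87. ARNTL minus PER2 was 1.67, 1.83 and 1.89 against 1.49, 1.58 and 1.77, and ARNTL minus PER3 was -2.25, -2.24 and -2.06 against -1.99, -2.13 and -2.25. The sets of goats overlapped in all 4 balances.

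The mean differences between lactating and dry goats were -0.02 for DBP, -0.07 for NR1D1, 0.18 for PER2 and -0.06 for PER3. By tissue the balance was higher in lactating goats in 17 of 33 tissues for DBP, 14 for NR1D1, 19 for PER2 and 17 for PER3. Without the 15 tissues the goat sets still overlapped in all 4 balances, but the mean differences were -0.27 for DBP, -0.23 for NR1D1, -0.10 for PER2 and -0.21 for PER3. The balance was then higher in lactating goats in 7 of 18 tissues for DBP, 6 for NR1D1, 9 for PER2 and 8 for PER3. All 4 differences moved towards a lower balance in lactating goats, so the values near 0 over 33 tissues rest in part on which tissues enter. These are descriptions with no test, since 1 hour per goat is sampled and the hour is not given in the labels. A phase that differed from tissue to tissue, or from goat to goat within a set, could leave these means level.

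**Figure D5:**
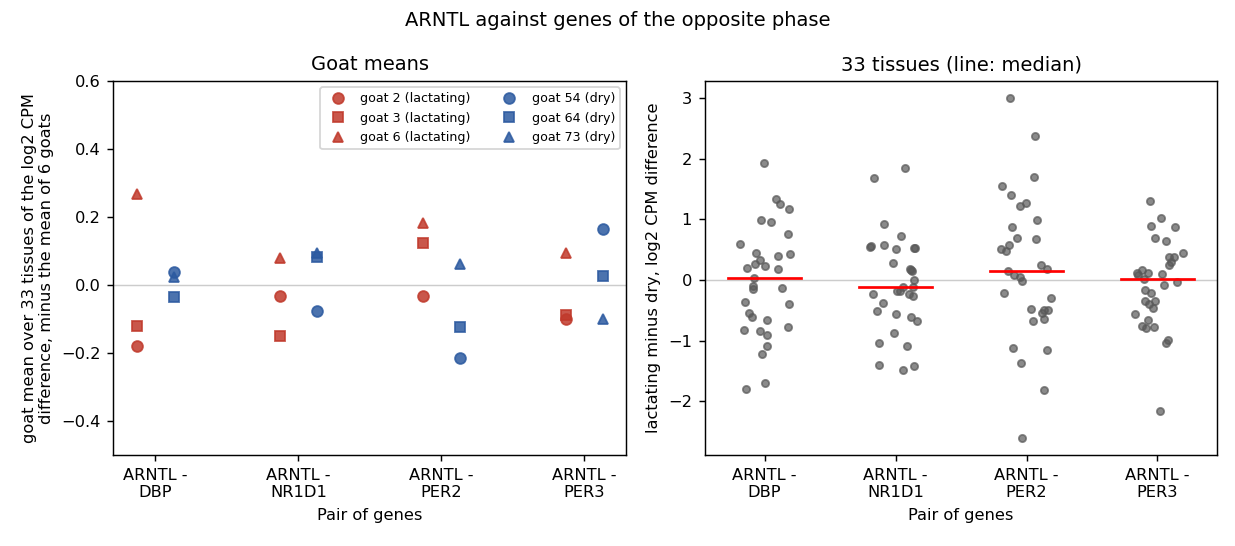
Left, ARNTL minus each opposite-phase gene as goat means over 33 tissues, less the mean of 6 goats; right, the lactating minus dry difference in each of 33 tissues, with the median as a red line. The goat sets overlap for all 4 pairs, and the tissues scatter on both sides of 0, from -2.61 in the diaphragm to 3.003 in the pineal gland for PER2.

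Single tissues lay on both sides of that balance. All lactating goats lay above all dry goats in 3 of 33 tissues for DBP, 3 for NR1D1, 4 for PER2 and 3 for PER3. They lay below in 1, 6, 2 and 3 tissues. For single features in CPM, 13.0% of all feature and tissue pairs tested had every lactating goat above and 7.45% below. The share over balances of other genes was not computed, so the counts for these balances have no like background. ARNTL minus PER2 was -0.48, -0.79 and 0.53 in the diaphragm of lactating goats against 3.01, 1.50 and 2.59 in dry goats. In the pineal gland it was 3.46, 4.41 and 3.42 against -0.59, 1.87 and 1.01, with PER2 there at 0.602, 0 and 0.419 CPM in lactating and 5.93, 1.74 and 2.85 CPM in dry goats. The sets were apart in both tissues, with opposite signs, on few PER2 counts. All 3 lactating pineal libraries were closest to another tissue. In the mammary gland ARNTL minus NR1D1 was -0.64, -0.64 and 0.00 in lactating against -1.17, -3.83 and -1.81 in dry goats, and in the diaphragm -3.78, -4.16 and -3.54 against -2.55, -1.96 and -2.50. ARNTL minus PER3 in the diaphragm was -3.86, -4.54 and -3.04 against -1.55, -1.55 and -1.87, again with all lactating goats lower. ARNTL minus DBP overlapped there, at 1.30, 0 and 0.886 against 2.14, 1.78 and 0.779. The diaphragm balances are not independent, since they share the ARNTL values. These were 1.59, 1.12 and 2.23 CPM in lactating against 2.97, 5.15 and 4.26 CPM in dry goats, without overlap.

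In tissues, the state difference of ARNTL had the opposite sign to that of PER2 and NR1D1 in 19 of 33 tissues each, of CRY2 in 18, of DBP in 16 and of PER3 in 15. NR1D2 went with ARNTL in 22 tissues and CLOCK in 21. Across all libraries, after each tissue's mean was subtracted, the 45 pairs of clock genes had Pearson correlations between -0.14 and 0.36, with a median of 0.07. Those of ARNTL were 0.13 with CLOCK, 0.13 with NR1D1, -0.02 with DBP, -0.09 with PER2 and -0.06 with PER3. The highest was CRY2 with NR1D2. Libraries share goats and depth, and counting error alone gave an SD of 0.441 in log2 for DBP against a within-group SD of 0.779, so these are descriptions.

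The genes most like each clock gene over the libraries, by that same correlation among 14972 genes, were mostly from outside the clock. For CLOCK they were TROVE2 (r = 0.59) and ARHGAP31 (0.57), for ARNTL NEXN (0.35) and RAD54L (0.34), for PER2 SLC43A1 (0.36) and TMEM252 (0.35), and for PER3 NUDT7 and ACOX3 (0.54 each). For CRY1 they were HAUS2 (0.33) and CAMK1 (0.30), for CRY2 PI4KA (0.58) and PLEC (0.55), and for NR1D1 TRAF3IP3 (0.52) and LOC102173865 (0.51). For NR1D2 they were TPT1_1 and IK (0.75 each), for DBP C10H15orf62 (0.40) and YDJC (0.39), and for BHLHE40 NMNAT2 and DHX36 (0.42 each). No clock gene ranked above place 259 in the list of another, which was PER3 for PER2. The libraries share goats, depth and the share of lncRNAs.

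Of 17 other clock genes with a row, PER1 and HLF were higher in lactating goats over all tissues, close to the share of 8.74% among all features, and the median was 0.01 against 0.04 for all features. PER1, the period gene that answers to glucocorticoids and to light as well as to the clock, was at 1.75, 1.79 and 1.62 in log2 CPM in lactating goats and 0.81, 1.10 and 1.11 in dry goats. All lactating goats were above all dry goats, by 0.72 (SE 0.133, limma adjusted p = 0.0096). It was higher by 1.02 over the 25 tissues outside the brain (adjusted p = 0.0014) and differed by -0.23 in brain (adjusted p = 0.836), but the difference between them did not pass (-1.25, adjusted p = 0.0673). PER1 differed by 0.995 without the 15 tissues (adjusted p = 0.0039). Its call was kept in 13 of 15 alternatives and lost with brain regions only and with the median over tissues (0.85, adjusted p = 0.0780). HLF, a PAR bZIP factor like DBP, differed by 0.55 (adjusted p = 0.0232) and lost its call in 7 of 15 alternatives (0.59, adjusted p = 0.0165, without the 15 tissues). The other 15 did not pass, among them ARNTL2 (-0.12) and NPAS2 (0.01), the paralogs of ARNTL and CLOCK.

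Of 7 output and rhythmic genes, CDKN1A, the p21 cell cycle inhibitor, was higher (0.45, limma adjusted p = 0.0357) and lost its call in 10 of 15 alternatives (0.44, adjusted p = 0.0439, without the 15 tissues). Of 8 glucocorticoid response genes 3 were higher over all tissues, PER1 included, beside 8.74% of all features, and the list's median was 0.37. FKBP5, a receptor co-chaperone, differed by 1.65 (adjusted p = 0.0001) and ZBTB16, a zinc finger factor, by 1.60 (adjusted p = 0.0006). Without the 15 tissues these were 1.89 (adjusted p = 4.05e-05) and 1.80 (adjusted p = 0.000177). FKBP5 kept its call in 14 of 15 alternatives and ZBTB16 in 13, losing it with brain regions only and with the median over tissues (1.34, adjusted p = 0.0660). TSC22D3 (0.28), ERRFI1 (0.37) and KLF9 (0.37), also of that list, did not pass, nor did SGK1 and DUSP1 (-0.03 each). Within tissues FKBP5 was called higher in 8 of 31 tissues tested and ZBTB16 in 7 of 31, beside 0.925% of all pairs, and neither was called lower in any. KLF9 was called lower in the kidney medulla (-1.21, edgeR adjusted p = 0.0233). None of 6 temperature response genes and none of 6 immediate early genes passed limma over all tissues, and 0 of either list had an unadjusted p under 0.05. Within tissues 4 of 185 pairs of the temperature list were called higher and 0 lower by edgeR, HSPA8, a heat shock cognate chaperone, in the liver (1.62), neurohypophysis (0.80) and adenohypophysis (1.04) and HSP90AA1, another chaperone, in the adenohypophysis (0.97). Of 55 pairs of the immediate early list 0 were called. The part of a glucocorticoid response in the PER1 and CLOCK differences was not tested.

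CLOCK-AS1, a lncRNA named for the opposite strand of CLOCK, had goat means of 393, 412 and 390 CPM in lactating and 374, 367 and 379 CPM in dry goats. The sets did not overlap, and the difference of 0.12 did not pass (limma adjusted p = 0.112). CRY2-IT1, a lncRNA named for an intron of CRY2, fell in the adenohypophysis (-0.85, edgeR adjusted p = 0.011) and neurohypophysis (-0.86, adjusted p = 0.007) of lactating goats. CRY2 itself stood at -1.50 in the adenohypophysis (adjusted p = 0.0975). No source used here says whether reads were counted by strand, so those of a gene and of such partners cannot be separated with certainty.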

How the data were processed

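Total RNA of 33 tissues from 6 goats was extracted with the RiboPure kit and made into strand-specific libraries with a VAHTS Universal kit, per the labels' protocols. STAR, StringTie and edgeR appear in the submitters' processing notes. Their roles and versions, the genome build and the use of strand in counting are not given in the sources used here. The authors deposited expected counts per gene and library, of which 36.9% of values above 0 were fractional, and these were rounded for the count tests. The deposited natural log offsets served as an alternative scaling, and the authors' tau score, a fraction from 0 to 1, is quoted only as deposited. A deposited table of scaled values was held in part and not used.

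CPM was computed per library total with Python 3.11.15. Lactating and dry goats were compared within each tissue with edgeR 4.0.16 in R 4.3.3 (filterByExpr with a minimum count of 10, TMM, quasi-likelihood test). Goat means over tissues, the brain difference and each tissue against the other 32 were tested with limma 3.58.1 on log2 CPM (prior count 2) of features that averaged 1 CPM or more in some tissue. All tests were two-sided with Benjamini-Hochberg adjustment at 0.05 over all features, and DESeq2 1.42.0 was an alternative. Scripts were tested on simulated data. The SE of an edgeR difference is its size over the square root of F. Intervals and the floor of 3 counts cover counting or sampling error only, and p-values measure the spread between these goats.

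Tissues of 1 goat come from the same animal. A tissue's residuals correlated with those of the same goat's other tissues at a median of 0.0802 to 0.148 by goat, so the alternative had each goat as a block. The clock genes and lists were chosen with earlier results of these data known. Named are the 10 clock genes, their highest and lowest tissues, the pairs called, genes of the other lists that passed over all tissues or came next by p, and the 2 most similar genes each. Alternatives that leave out doubtful tissues or split brain from other tissues, and the list of overlapping lncRNAs, were chosen after seeing the data. ARNTL stands for BMAL1, and BMAL1, BMAL2, CSNK1E, POR, MT2A and HSPA1A rows were not analysed here.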

Additional observations from a re-analysis of the deposited data

Results flagged for a closer look

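Of 330 groups of 6 libraries (10 clock genes in 33 tissues), 27 held a library far from the other 5, judged by the gap to its neighbour as a share of the whole range. The cut-off gives about 1 in 20 by chance for normally distributed values of 1 group. These groups hold CPM values of 3 lactating and 3 dry goats, many on few counts, so that rate need not apply. Of the 27, the library was high in 22 and low in 5. The library was of goat 3 in 10 groups, goat 2 in 6, goat 6 in 5, goat 64 in 3, goat 54 in 2 and goat 73 in 1. None concerned CLOCK, and 6 concerned PER2, a gene with few counts.

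In the activator arm, ARNTL was at 0.938 CPM in the liver of goat 2, where the others had 5.17 to 7.42 CPM, and at 7.19 CPM in the thyroid of goat 2, against 1.87 to 3.76 CPM.

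PER2 was high in the colon (4.68 CPM) and thyroid (5.33 CPM) of goat 3, the hippocampus of goat 6 (3.51 CPM), the mammary gland of goat 73 (8.37 CPM), the mandibular lymph node of goat 2 (2.03 CPM) and the rhinencephalon of goat 64 (2.43 CPM). PER3 was low in the rumen of goat 64 (11.6 CPM) and high in the subcutaneous fat of goat 3 (43.1 CPM). CRY1 of goat 3 was high in the hippocampus (8.06 CPM) and low in the rhinencephalon (1.46 CPM). CRY2 was high in the adrenal cortex of goat 2 (7.49 CPM), the esophagus of goat 6 (6.22 CPM) and the neck skin of goat 3 (12.9 CPM), and low in the rumen of goat 6 (0.993 CPM).

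NR1D1 was high in the adrenal medulla of goat 54 (25.4 CPM), the esophagus of goat 6 (23.5 CPM) and the frontal neocortex (57.9 CPM), masseter muscle (31.9 CPM) and spleen (22.6 CPM) of goat 3. NR1D2 was high in the omasum of goat 6 (16.5 CPM). DBP was high in the adenohypophysis of goat 54 (7.19 CPM), the heart (2.99 CPM) and liver (2.58 CPM) of goat 2 and the spleen of goat 3 (7.53 CPM). BHLHE40 was low in the thyroid of goat 64 (2.40 CPM). Of these libraries, the esophagus of goat 6 and the neck skin, frontal neocortex and hippocampus of goat 3 were among those closest to another tissue.

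The state difference of CRY2 differed between the 8 brain regions and the other 25 tissues by the test of the difference itself, at -1.23 in log2 CPM (limma adjusted p = 0.0225).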

How the results depend on the processing

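Beside fits that leave out 1 goat, CLOCK over all tissues lost its call with the median over tissues (0.32) and with brain regions only (0.44), where 0 clock genes passed, and kept it in 13 of 15 alternatives. Over all tissues, 2737 features were higher and 606 lower (81.9% of calls higher). These were 1259 and 1412 with TMM over all libraries (47.1% higher), 1475 and 1121 with the total over features that are not lncRNAs (56.8%), 184 and 35 with the median over tissues, 0 and 3 with brain regions only, 4624 and 1032 with the other tissues only, and 4943 higher without the 15 tissues that hold a library closest to another tissue. The median of all features was 0.04 with library totals and -0.03 with TMM. The cause of these shifts was not tested.

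Differences over all tissues that had not passed changed sign as follows. With TMM, ARNTL was -0.041 and CRY1 -0.070. With the total over features that are not lncRNAs, ARNTL was -0.0024, CRY1 -0.037 and CRY2 -0.00058. With the median over tissues, CRY1 was -0.044, NR1D2 0.033 and BHLHE40 0.040. With brain regions only, CRY2 was -0.84, NR1D1 -0.078, NR1D2 0.21, DBP -0.41, BHLHE40 0.030 and PER1 -0.23. With the other tissues only CRY1 was -0.069. Without the 15 tissues PER2 was 0.14, CRY1 -0.044 and NR1D2 0.13.

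For the difference between brain and other tissues, 22 features were higher and 683 lower. With a prior count of 0.5 these were 0 and 0 and so 0 clock genes passed. The lower features were 235 with TMM and 206 with the total over features that are not lncRNAs, and without the 15 tissues 101 were higher and 1954 lower. Uncalled clock genes changed sign there with TMM (CLOCK 0.11, ARNTL 0.13, PER3 0.13), with the total over features that are not lncRNAs (CLOCK 0.12, ARNTL 0.13, PER3 0.15) and without the 15 tissues (ARNTL 0.16, PER2 -0.36). PER1 then passed (-1.45).

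Within tissues, the pairs of clock gene and tissue called, 2 higher and 2 lower, were 6 and 3 with DESeq2, 5 and 4 with no count filter, and 1 and 1 without the 15 tissues. Over all features DESeq2 called 9617 higher and 10262 lower pairs, and no filter 12585 and 13160, against 5348 and 5643. Against the other tissues, 27 higher and 23 lower clock pairs were called without the 15 tissues. With TMM over all libraries PER3 in the cerebellar hemisphere (-0.034), BHLHE40 in the heart (0.027) and ARNTL (0.12), CLOCK (0.12), CRY1 (0.027) and PER2 (0.18) in the masseter muscle changed sign. With the goat as a replicate block, 35 pairs were higher and 35 lower, against 43 and 35, with 15 calls lost and 7 gained. Lost beside ARNTL were CRY1 (rumen, cerebellar hemisphere), CRY2 (reticulum, rumen), NR1D2 (neurohypophysis, omasum), PER2 (duodenum, subcutaneous fat), NR1D1 (adrenal medulla), PER3 (cerebellar hemisphere) and BHLHE40 (thyroid), and gained beside CLOCK were NR1D1 (masseter muscle) and NR1D2 (hypothalamus). No paired analysis of lactation state was possible because the states hold different goats.

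Leaving out 1 goat at a time gave 968 to 2433 higher and 139 to 446 lower features over all tissues, 1 clock gene called in each fit, and a CLOCK difference of 0.45 to 0.57. CRY1 ran from -0.060 to 0.16, CRY2 from -0.028 to 0.19 and NR1D2 from -0.12 to 0.022. For brain against other tissues it gave 0 to 13 higher and 0 to 981 lower features and 0 to 1 clock gene, with CRY2 from -1.31 to -1.09, CLOCK from -0.22 to 0.025, ARNTL from -0.12 to 0.0098, PER2 from -0.089 to 0.24, PER3 from -0.14 to 0.023 and BHLHE40 from -0.11 to 0.47. Within tissues 1 to 3 higher and 0 to 1 lower clock pairs were called, with 2801 to 5119 higher and 3266 to 5948 lower pairs over all features. Against other tissues there were 33 to 40 higher and 24 to 31 lower clock pairs. Without the 15 tissues the balance of ARNTL was -0.27 for DBP, -0.23 for NR1D1, -0.10 for PER2 and -0.21 for PER3. Leaving out 1 goat, it ran from -0.16 to 0.07 for DBP, -0.12 to -0.0096 for NR1D1, 0.12 to 0.26 for PER2 and -0.13 to 0.01 for PER3. Smaller fits hold fewer goats, and depth limits PER2, DBP, CRY1, BHLHE40 and CRY2 most.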
